A study of Mus musculus with 32 samples.

Results

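The gene group described here holds 10 genes of fatty acid synthesis and lipid droplets (Acly, Acaca, Fasn, Scd2, Acsl1, Dgat1, Plin2, Plin3, Pnpla2 and Fabp5), chosen by symbol from a gene-level RNAseq table of mouse forebrain microglia. All 10 symbols were found, among 18588 genes in the table. The libraries came from female rTg4510 mice and WT littermates (strain 129/FVB F1 in the labels) at 2, 4, 6 and 8 months of age. rTg4510 mice carry 2 transgenes, a P301L human tau gene behind a tetracycline-responsive element and a transactivator (tTA) under the CaMKIIα promoter, which together drive mutant tau in forebrain neurons. The WT mice carry neither, so no group had the transactivator without tau. Each library held RNA of cells captured with CD11b magnetic beads from pooled forebrains of 8 to 10 animals, and individual animals were therefore not seen. After the exclusions made by the authors, 4 libraries per genotype remained at 2 and 6 months (replicates 1 to 4), 3 at 4 months (replicates 1, 2 and 4) and 3 at 8 months (replicates 1 to 3), 28 in all.

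Fatty acid synthesis begins when ATP citrate lyase makes cytosolic acetyl-CoA, which acetyl-CoA carboxylase turns into malonyl-CoA and fatty acid synthase joins into palmitate; a desaturase can then add a double bond. Fatty acids are activated by acyl-CoA synthetases, stored as triglyceride by acyltransferases and kept in lipid droplets, whose surface is coated by perilipins and whose stores are released by lipases. Lipid-laden, droplet-rich microglia are known from the aged, demyelinated and diseased brain. The question put to these data was how the RNA of each step differed between rTg4510 and WT microglia at each age, and between ages.

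Acaca, Fabp5 and Plin2 were up-regulated in rTg4510 microglia at 4, 6 and 8 months, and no member was up- or down-regulated at 2 months. Fabp5, a cytosolic fatty acid binding protein, was 7.77 to 10.1 times its WT signal at these ages, Acaca 3.38 to 3.67 times and Plin2 1.64 to 1.91 times. The 95% intervals of the Fabp5 fold were wide, at 4.24 to 14.2, 5.99 to 17.1 and 5.46 to 18.3 from 4 to 8 months. Acly, Fasn, Scd2, Acsl1, Dgat1, Plin3 and Pnpla2 did not pass at any age, and the estimates for Acly and Fasn, the enzymes directly before and after Acaca in the pathway, were under 1.5 fold. A gene was called up- or down-regulated here when its false discovery rate (FDR, Benjamini-Hochberg over all 18588 genes) in the linear model was under 0.05 and its change was above 1.5 fold, 0.585 on the log2 scale. By this rule 0 of 10 members were called at 2 months, where 1.98% of all genes were, and 3 of 10 at 4, 6 and 8 months, where 13.8%, 19.8% and 15.9% of all genes were. In the higher direction alone the shares of all genes were 1.58%, 9.47%, 11.3% and 10.5% from 2 to 8 months. No member was called lower, where 0.403%, 4.33%, 8.54% and 5.37% of all genes were. The median log2 fold change over the 10 members was 0.08, 0.48, 0.25 and 0.24 at 2, 4, 6 and 8 months, beside 0.01, -0.04, -0.04 and -0.01 over all genes tested. The members were listed with earlier results of these data known, so these counts describe the genes and do not test the pathway.

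**Figure D1:**
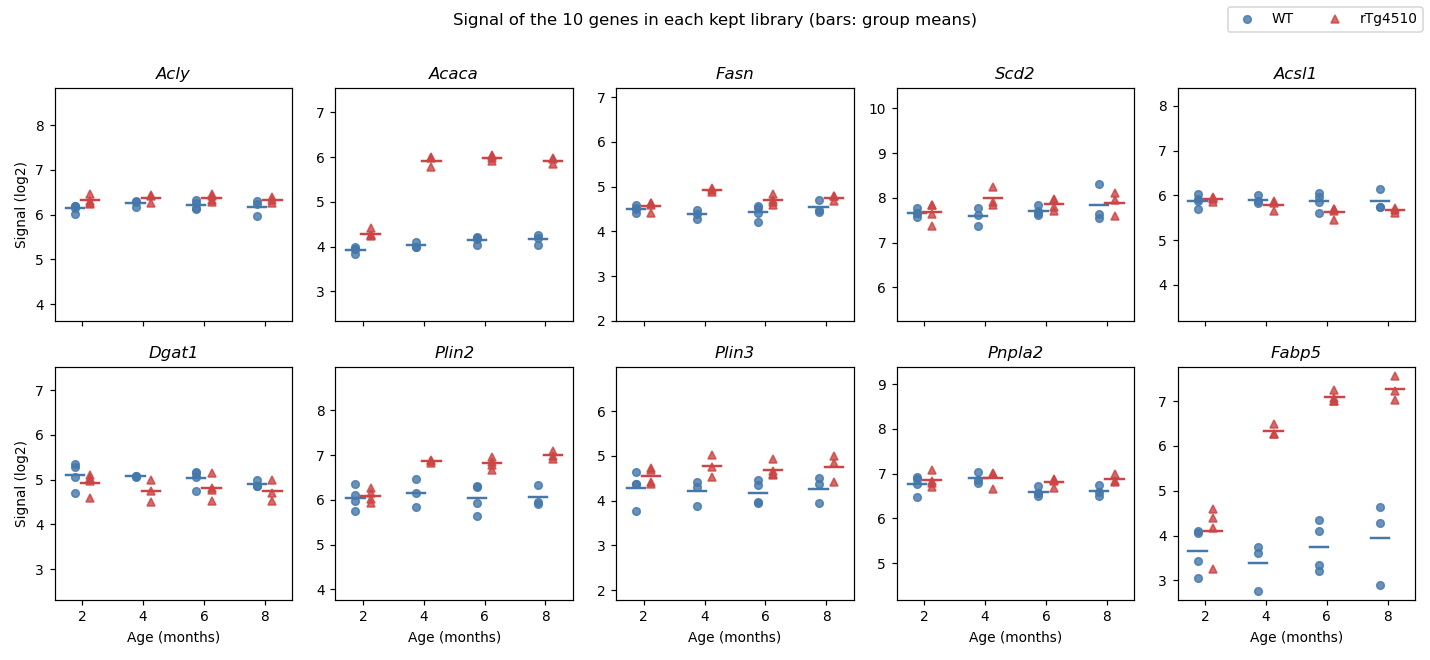
Log2 signal of the 10 genes in each of the 28 libraries by age in months, with WT as circles, rTg4510 as triangles and a bar at each group mean. Every panel spans the same number of log2 units, and Acaca, Plin2 and Fabp5 are the panels in which all rTg4510 libraries lie above all WT libraries at 4, 6 and 8 months.

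Signals are log2 values scaled by the authors to the same median in each library, 5.63. They are not given per transcript length, so levels are compared between libraries for 1 gene and not between genes. In bulk RNA a smaller share of cells that carry a transcript and less of it per cell cannot be told apart. The bead isolation could also hold other CD11b-positive cells or debris, and markers of such cells are given near the end.

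For Acaca and Fabp5 the sequences matter to what the signal counts, since both genes have processed pseudogenes that are themselves rows of the table. Acaca (Entrez 107476, chr11:84129635-84401651 in GRCm38) matched the pseudogene Gm5182 at 99.2% identity over 6118 aligned bases, and 66.8% of the 6019 windows of 100 bases, the read length of the study, were identical in both. Fabp5 (Entrez 16592, chr3:10012585-10016610) matched Gm6166 at 98.3% identity over 409 bases, with 25.8% of 310 such windows identical. The 2 pairs of 100-base stretches below, from exons of the gene that hold coding sequence (reference genome GRCm38 with GENCODE transcripts, plus strand) and the matching place in its copy, are shown because a read of that length differs between gene and copy only at the base in capitals. They lie at chr11:84243278-84243377 (Acaca), chr12:10152437-10152536 (Gm5182), chr3:10014981-10015080 (Fabp5) and chr9:57484052-57484151 (Gm6166).
Acaca: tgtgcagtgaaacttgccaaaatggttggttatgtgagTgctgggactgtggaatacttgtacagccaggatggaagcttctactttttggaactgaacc
Gm5182: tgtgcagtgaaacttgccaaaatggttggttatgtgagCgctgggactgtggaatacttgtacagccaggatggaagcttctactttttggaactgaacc
Fabp5: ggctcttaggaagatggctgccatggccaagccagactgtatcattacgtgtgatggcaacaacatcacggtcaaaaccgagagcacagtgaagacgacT
Gm6166: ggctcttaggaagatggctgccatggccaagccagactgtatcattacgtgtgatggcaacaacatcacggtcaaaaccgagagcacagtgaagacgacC
The mouse strain is not that of the reference genome, so single bases of the copies may differ in these animals. How reads that match several places were counted is not given in the sources used here. The Acaca and Fabp5 values below are therefore uncertain as to which locus the reads came from.

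Acly (Entrez 104112, chr11:100476352-100528000) encodes ATP citrate lyase, which supplies the acetyl-CoA. Its signal in all 28 libraries lay between 5.98 and 6.46. At 2 months the WT libraries read 6.01, 6.19, 6.20 and 6.15 and the rTg4510 libraries 6.31, 6.46, 6.24 and 6.27, so all 4 rTg4510 libraries were above all 4 WT libraries, by 0.18 in log2 signal (95% interval 0.03 to 0.32, FDR = 0.164). The groups overlapped at the later ages, where the log2 fold changes were 0.13 (-0.04 to 0.29), 0.16 (0.01 to 0.30) and 0.16 (-0.01 to 0.32). These intervals put the Acly difference below 1.5 fold at every age.

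Acaca encodes acetyl-CoA carboxylase alpha, the enzyme that commits acetyl-CoA to fatty acid synthesis. In WT microglia its log2 signal was 3.94, 3.99, 3.83 and 3.94 at 2 months, 4.00, 4.00 and 4.10 at 4 months, 4.17, 4.03, 4.21 and 4.20 at 6 months, and 4.03, 4.20 and 4.27 at 8 months. In rTg4510 microglia it was 4.26, 4.24, 4.41 and 4.26 at 2 months, 5.97, 5.77 and 6.00 at 4 months, 6.04, 6.02, 5.97 and 5.92 at 6 months, and 5.97, 5.95 and 5.84 at 8 months. The genotypes did not overlap at any age, and the 10 rTg4510 libraries from 4 months on lay within 0.266 of each other. The log2 fold change was 0.37 (SE 0.0592) at 2 months, which passed the FDR (0.000419) at 1.29 fold but not the fold threshold. It was 1.88 (SE 0.0683) at 4 months, 1.84 (SE 0.0592) at 6 months and 1.76 (SE 0.0683) at 8 months, with FDR values of 6.2e-14, 6.37e-15 and 2.3e-13 in the limma linear model. The step fell between 2 and 4 months: the genotype difference was larger at 4 than at 2 months by 1.51 (95% interval 1.32 to 1.70, FDR = 1.2e-09), and rTg4510 microglia at 4 months were 3.08 times those at 2 months, while WT microglia were 1.08 times (0.984 to 1.18).

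The pseudogene row moved with Acaca. Gm5182 (chosen after its values were seen) ranged from 9.11 to 9.52 in the 14 WT libraries, from 9.44 to 9.50 in rTg4510 at 2 months and from 11.18 to 11.49 in rTg4510 from 4 months on. Its log2 fold changes, 0.34, 2.09, 2.00 and 1.92 from 2 to 8 months, had the same order as those of Acaca, and the Pearson r of both rows over the 28 libraries was 0.997. Of all genes with a mean signal above the 25th percentile, Gm5182 was the most like Acaca; this r describes libraries that share genotype and age.

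**Figure D2:**
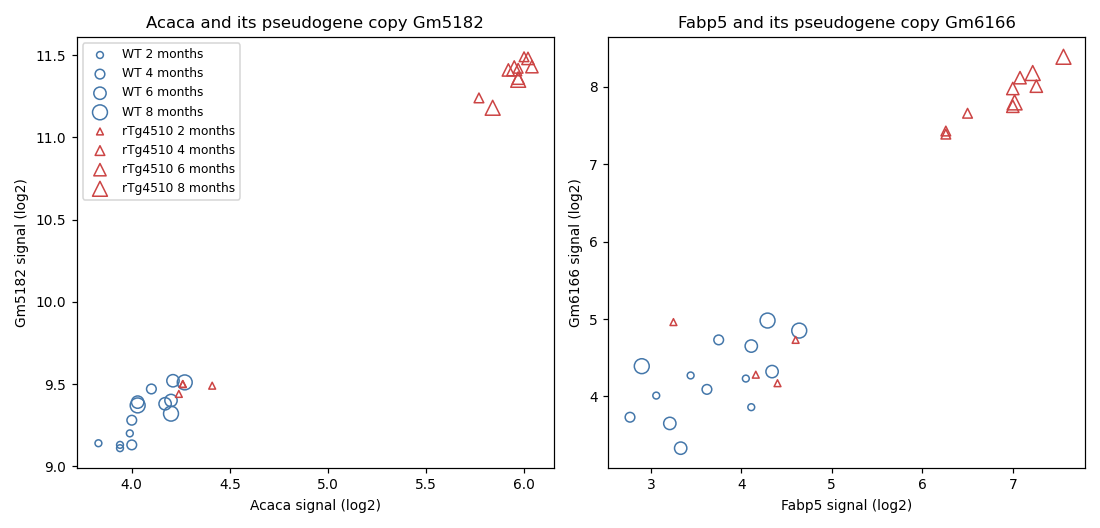
Log2 signal of Acaca against its pseudogene copy Gm5182 (left) and of Fabp5 against its copy Gm6166 (right) in each of the 28 libraries, with WT as circles, rTg4510 as triangles and larger symbols for older mice. In both panels the rTg4510 libraries from 4 months on stand apart from all others on both axes.

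Fasn (Entrez 14104, chr11:120805958-120825166) encodes fatty acid synthase and had no near-identical copy. WT libraries read 4.28, 4.47 and 4.39 at 4 months and rTg4510 libraries 4.98, 4.87 and 4.93, so the groups were apart. The log2 fold change at 4 months was 0.55 (SE 0.0881, FDR = 6.94e-05), or 1.46 fold, just under the 1.5-fold threshold. It was 0.07 at 2 months, 0.28 at 6 months (SE 0.0763, FDR = 0.00711, 1.21 fold) and 0.21 at 8 months (FDR = 0.0948). The genotype difference was larger at 4 than at 2 months by 0.48 (95% interval 0.24 to 0.73, FDR = 0.0134), again past the FDR and not the fold threshold. By the FDR alone, Acaca passed at 2 months, where 6.03% of all genes did; Acaca, Fasn, Plin2 and Fabp5 passed at 4 months, where 23.2% did; these 4 and Plin3 passed at 6 months, where 34.1% did; and Acaca, Plin2 and Fabp5 passed at 8 months, where 25.7% did. Fasn at 4 months without the WT replicate 2 library was 0.59 and passed both thresholds.

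Scd2 (Entrez 20250, chr19:44293676-44306864) encodes a stearoyl-CoA desaturase, which makes monounsaturated fatty acids and is abundant in myelinating brain. Among the 28 libraries its signal ranged from 7.38 to 8.31 in WT and from 7.38 to 8.25 in rTg4510. The log2 fold changes were 0.00, 0.40, 0.14 and 0.06, with 95% intervals of -0.31 to 0.32, 0.04 to 0.77, -0.17 to 0.46 and -0.30 to 0.42 and FDR values of 0.105 or above. With all 32 libraries the 4-month estimate turned to -0.06, and leaving out 1 library moved the 8-month estimate between -0.08 and 0.30. At 8 months the spread was wide, since WT libraries read 8.31, 7.55 and 7.63 and rTg4510 libraries 8.11, 7.96 and 7.59. The replicate 1 library was the highest in Scd2 in both genotypes at that age. It was also the highest in the summed signal of 8 oligodendrocyte genes. That sum was 11.06 against 9.16 and 8.33 in WT and 9.99 against 8.51 and 7.99 in rTg4510. In WT its astrocyte marker sum was 11.62 against 10.36 and 10.56, and its neuron marker sum 6.88 against 6.49 and 5.48. In rTg4510 these sums were 10.18 against 9.65 and 9.82, and 5.68 against 5.62 and 4.77. Replicate 1 was not the highest in both genotypes for any other marker list. Over all 28 libraries the Pearson r of Scd2 with the oligodendrocyte sum was 0.396, and without these 2 replicate 1 libraries it was -0.133. The part of oligodendrocyte, astrocyte or neuron RNA in the Scd2 signal was not tested. Scd2 shared 95.5% identity over 623 bases with Scd1, so reads of that stretch may be split between them; Scd1 was not called at any age, with log2 fold changes of 0.17, -0.74, -0.67 and -0.15.

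Acsl1 (Entrez 14081, chr8:46471037-46536051), a long-chain acyl-CoA synthetase that activates fatty acids, and Dgat1 (Entrez 13350, chr15:76502012-76512021), which adds the last acyl chain of triglyceride, had negative estimates from 4 months on. For Acsl1 the log2 fold changes were 0.05, -0.12, -0.25 and -0.21 (95% interval at 6 months -0.45 to -0.04, FDR = 0.0573). At 8 months its rTg4510 libraries, at 5.68, 5.72 and 5.60, were all below its WT libraries, at 5.75, 5.73 and 6.14, with the nearest pair at 5.72 and 5.73. For Dgat1 the log2 fold changes were -0.18, -0.33, -0.22 and -0.16 (95% interval at 4 months -0.70 to 0.04). At 4 months Dgat1 read 5.09, 5.05 and 5.07 in WT and 4.98, 4.75 and 4.49 in rTg4510, and the groups did not overlap. Neither gene passed the FDR at any age.

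Plin2 (Entrez 11520, chr4:86626910-86670217) encodes perilipin 2, the coat protein found on lipid droplets of most cells outside fat tissue. Its log2 signal in WT was 6.35, 5.97, 5.75 and 6.12 at 2 months, 6.46, 5.84 and 6.15 at 4 months, 6.28, 5.64, 5.92 and 6.32 at 6 months, and 5.95, 6.33 and 5.91 at 8 months. In rTg4510 it was 6.16, 6.01, 5.92 and 6.26 at 2 months, 6.87, 6.90 and 6.82 at 4 months, 6.79, 6.85, 6.67 and 6.95 at 6 months, and 7.10, 6.98 and 6.92 at 8 months. The genotypes overlapped at 2 months and were apart at each later age. Log2 fold changes were 0.04 (SE 0.152), 0.71 (SE 0.176, FDR = 0.00471), 0.78 (SE 0.152, FDR = 0.000384) and 0.94 (SE 0.176, FDR = 0.000327). Within rTg4510, Plin2 was 1.71 times as high at 4 as at 2 months (95% interval 1.35 to 2.17, FDR = 0.00249), and within WT it was 1.07 times (0.848 to 1.36). The test of the genotype difference at 4 against 2 months gave 0.67 (0.19 to 1.16, FDR = 0.0885) and did not pass.

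The Plin2 call at 4 months was sensitive: without the WT replicate 2 library the change was 0.55 (FDR = 0.0402) and under 1.5 fold, and in a fit to the 4-month libraries alone the FDR was 0.0944. With the 4 excluded libraries added, the FDR at 6 months was 0.08. At 8 months Plin2 passed in every alternative tried.

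A stretch of 259 bases of Plin2 matched the pseudogene Gm12551 at 96.1% identity, and Gm12551 was not a row of the table. Because Plin2 was the called member without a copy among the rows, the 300 bases around an annotated transcription start of the gene are shown. They are 250 before and 50 after that start (RefSeq on GRCm38.p6, chr4:86670010-86670309, minus strand, printed 5′ to 3′). The start used lies inside the Plin2 span given above and not at its outer end, so some bases before it also fall within that span. Capitals mark matches on either strand to 4 motifs: the E-box CACGTG, the nuclear receptor half-site AGGTCA, the CCAAT box and the GC box GGGCGG.
Plin2: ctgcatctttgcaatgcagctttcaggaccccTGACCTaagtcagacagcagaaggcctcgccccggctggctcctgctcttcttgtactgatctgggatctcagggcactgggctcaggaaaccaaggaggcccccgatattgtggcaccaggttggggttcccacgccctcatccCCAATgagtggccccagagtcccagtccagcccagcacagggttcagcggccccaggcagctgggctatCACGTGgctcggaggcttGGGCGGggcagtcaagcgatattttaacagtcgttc
Of 32851 RefSeq windows of the same length, 7.2% held the E-box, 16.3% the half-site, 37.4% the CCAAT box and 35.7% the GC box, and Plin2 held 1 of each. The sterol regulatory element core TCACNCCAC, found in 1.2% of all windows, was not among its letters. Windows were at hand for 7 of the 10 members. These matches describe the sequence; binding was not measured.

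Plin3 (Entrez 66905, chr17:56278962-56290511), a perilipin that moves between cytosol and young droplets, had log2 fold changes of 0.26, 0.56, 0.50 and 0.48. At 6 months it passed the FDR at 0.0448 and 1.42 fold but not the fold threshold. WT libraries read 4.46, 3.95, 4.35 and 3.96 and rTg4510 libraries 4.66, 4.92, 4.57 and 4.59 at that age, without overlap. The SE of 0.188 to 0.218 was among the larger of the members, and the 95% interval at 4 months reached from 0.11 to 1.01, on both sides of 1.5 fold. The missing calls were sensitive too: with all 32 libraries Plin3 at 4 months was 0.87 (FDR = 0.0101) and passed both thresholds, as it did at 6 months without the WT replicate 1 library (0.60, FDR = 0.0302).

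Pnpla2 (Entrez 66853, chr7:141455188-141460743) encodes adipose triglyceride lipase, which starts the breakdown of stored triglyceride. Its signal stayed between 6.49 and 7.08 in all 28 libraries. The log2 fold changes were 0.09 (95% interval -0.12 to 0.30), -0.00 (-0.24 to 0.24), 0.23 (0.02 to 0.44) and 0.27 (0.02 to 0.51). At 8 months the rTg4510 libraries (6.83, 6.81 and 6.99) were above the WT libraries (6.59, 6.74 and 6.51), with an FDR of 0.101. A difference above 1.5 fold lay outside the interval at every age.

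Fabp5 had the widest range of the members. WT libraries read 4.05, 3.06, 3.44 and 4.11 at 2 months, 3.62, 2.77 and 3.75 at 4 months, 4.34, 3.33, 4.11 and 3.21 at 6 months, and 4.64, 4.29 and 2.90 at 8 months. rTg4510 libraries read 4.60, 4.40, 3.25 and 4.16 at 2 months, 6.26, 6.50 and 6.26 at 4 months, 7.00, 7.08, 7.26 and 7.00 at 6 months, and 7.22, 7.56 and 7.02 at 8 months. The lowest rTg4510 library from 4 months on was thus 1.62 or more above the highest WT library of any age, while at 2 months the genotypes overlapped. The log2 fold change was 0.44 (SE 0.362, FDR = 0.643) at 2 months, 2.96 (SE 0.419, FDR = 1.46e-05) at 4 months, 3.34 (SE 0.362, FDR = 2.29e-07) at 6 months and 3.32 (SE 0.419, FDR = 2.57e-06) at 8 months. WT signals of Fabp5 were low. In log2 they lay 1.15 to 2.29, 1.56 to 2.52 and 1.32 to 3.06 above the lowest signal of their library from 4 to 8 months. The size of the Fabp5 fold is therefore not read as exact. The genotype difference was larger at 4 than at 2 months by 2.52 (95% interval 1.37 to 3.68, FDR = 0.00688). Its copy Gm6166 had log2 fold changes of 0.44, 3.31, 3.98 and 3.39 and a Pearson r of 0.962 with Fabp5. A second copy, Gm14328, had estimates of 2.35, 2.11 and 2.05 from 4 months on (r = 0.873), but its signal was low. Both genotypes at 2 months and WT at 4 months were within 3 times the lowest signal of their library, so no fold is read at 2 months and the fold at 4 months is at least 2.38. WT libraries at 6 months were also close to that lowest signal, at 0.00, 0.00, 1.58 and 1.22 above it in log2. The 6-month estimate of 2.11 is therefore not read as an exact change. The Gm14328 call at 8 months was lost in a fit to that age alone (FDR = 0.219), without both replicate 1 libraries (FDR = 0.0548), without the rTg4510 replicate 2 library (1.82, FDR = 0.0582) and without the WT replicate 3 library (1.31, FDR = 0.103). Both copies were chosen after their values were seen. Il2rg (r = 0.969) and Cxcl16 (r = 0.965) were the genes most like Fabp5 over the 28 libraries.

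**Figure D3:**
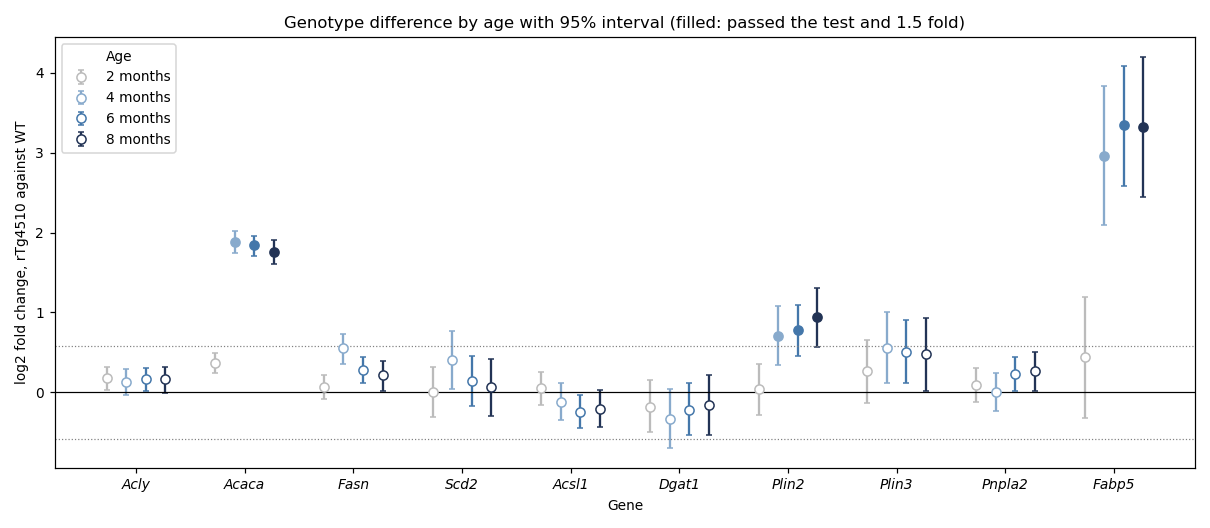
Log2 fold change of rTg4510 against WT for each gene at 2, 4, 6 and 8 months (light to dark), with bars for the 95% interval, filled symbols where FDR was under 0.05 and the change above 1.5 fold, and dotted lines at 1.5 fold. Filled symbols are seen for Acaca, Plin2 and Fabp5 at 4, 6 and 8 months.

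All rTg4510 libraries lay above all WT libraries for 2 of 10 members at 2 months (7.49% of all genes), 6 at 4 months (19.1%), 5 at 6 months (18.2%) and 4 at 8 months (21.2%). They lay below for 1 member at 4 months (Dgat1; 17.5% of all genes) and for 1 at 8 months (Acsl1; 15.5%), and for none at 2 months (3.51%) or 6 months (14.6%).

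With age, 2 of 10 members (Acaca and Fabp5) had a genotype difference that passed at 4 against 2 months, beside 4.66% of all genes. None did at 6 against 4 months (0.156%) or at 8 against 6 months (0%). Within rTg4510, 3 members were higher at 4 than at 2 months (Acaca, Fabp5 and Plin2; 6.39% of all genes passed), and none passed from 4 to 6 months (0.818%) or from 6 to 8 months (0.00538%). Within WT none passed from 2 to 4 months (0.0484%), from 4 to 6 months (0.00538%) or from 6 to 8 months (0%).

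The genes most like the other members were also read. Plin2 was most like Lilrb4a (r = 0.930), an inhibitory receptor of myeloid cells, and Myo5a (0.929). Fasn was most like Gm8910 (0.831) and Il4i1b (0.817), Acly like Sdha (0.842), a subunit of mitochondrial complex II, and Parp1 (0.798), and Acsl1 like Letm1 (0.815) and Vav1 (0.800). The highest r for Scd2 was 0.702 (Fgf1 and Csrp1), for Pnpla2 0.756 (Polr2l), then 0.738 (Ehbp1l1). For Dgat1 the second was Tbc1d14 (0.791) and for Plin3 Rpl17-ps4 (0.776), the first of each being an Entrez entry without a symbol in the annotation. Each r describes 28 libraries that share genotype and age, and no p is attached.

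Around the members, 107 other genes of the same pathways were in the table. Of these, 2 were called higher at 2 months, 8 higher and 2 lower at 4 months, 11 higher and 2 lower at 6 months, and 13 higher and 1 lower at 8 months, with a median log2 fold change between -0.02 and 0.03. In both directions together that was 1.87%, 9.35%, 12.1% and 13.1% of the 107 from 2 to 8 months, beside 1.98%, 13.8%, 19.8% and 15.9% of all genes. At 1 or more ages 25.1% of all genes were called, 14.1% higher and 11.1% lower, and the counts of each step below stand beside these shares. No step was tested as a group.

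Of 13 measured genes of triglyceride and steryl ester synthesis, 4 were up-regulated at 1 or more ages, where 14.1% of all genes were, and none was down-regulated. Dgat2, the other enzyme of the last triglyceride step, was up-regulated at all 4 ages, with log2 fold changes of 0.85 (FDR = 0.0183), 1.43 (FDR = 0.000178), 1.76 (FDR = 1.3e-06) and 1.35 (FDR = 0.000282). Its WT libraries at 2 months (2.61, 2.76, 3.02 and 3.33, against 4.11, 3.85, 3.76 and 3.42 in rTg4510) were within 3 times the lowest signal of their library, so that the fold at 2 months is at least 1.44. In fits to the libraries of 1 age alone its FDR was 0.116 at 2, 0.0626 at 4 and 0.0505 at 8 months, so that only the 6-month call was kept, and the 2-month call was also lost in 3 of 28 fits without 1 library. Soat1, which esterifies cholesterol, was 0.06 at 2 months and then 0.92, 1.18 and 1.09, with FDR values of 8.88e-09 or below. Soat2 was up-regulated from 4 months on (0.79, 0.89 and 1.11), but these calls were sensitive. At 4 months its FDR was 0.129 with all 32 libraries and 0.144 in a fit to that age alone. At 8 months it was 0.147 in a fit to that age alone. Without the replicate 1 libraries of that age, the ones high in oligodendrocyte, astrocyte and neuron genes, it was 0.054. Dgat1 and Dgat2, which catalyse the same reaction, had estimates of opposite sign at every age, though Dgat1 did not pass the test.

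Of 11 genes of fatty acid uptake, binding and activation, 2 were up-regulated at 1 or more ages. Fabp3, another fatty acid binding protein, was 0.11 at 2 months and 2.44, 2.94 and 2.76 later (FDR = 1.84e-05, 1.12e-07 and 2.93e-06). WT libraries at these later ages were within 3 times the lowest signal of their library, and set against that level the change of Fabp3 was at least 3.46, 3.90 and 4.83 fold. Dbi, an acyl-CoA binding protein, was 0.95, 0.81 and 0.61 from 4 months on. The Dbi call at 8 months was lost in a fit to that age alone (FDR = 0.314), after quantile normalization (0.52, FDR = 0.0576) and in 3 of 28 fits without 1 library. Cd36, a fatty acid translocase and scavenger receptor, did not pass, with -0.44, -0.02, -0.24 and -0.44.

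Among 23 other genes of synthesis, elongation and desaturation, 2 were up-regulated, both of the elongation cycle. Hacd2 was 1.04, 0.72 and 0.65 from 4 months on (FDR = 3.2e-06, 3.2e-05 and 0.00068), and Hsd17b12 was 0.59 at 6 months (FDR = 1.1e-05). Hacd2 at 8 months was 0.56 and Hsd17b12 at 6 months 0.57 after quantile normalization, under 1.5 fold, and Hacd2 at 8 months had an FDR of 0.0712 in a fit to that age alone. Of 15 lipogenic regulators none was up-regulated and 2 were down-regulated at 1 or more ages, where 11.1% of all genes were. Srebf1, the transcription factor of lipogenic genes, was -0.13, 0.02, 0.17 and 0.30, passing the FDR at 8 months (0.0209) at under 1.5 fold. Srebf2, Scap, Insig1 and Nr1h3 did not pass at any age, with log2 fold changes between -0.16 and 0.53. Thrsp and Mid1ip1, cofactors of lipogenesis of which Mid1ip1 promotes assembly of acetyl-CoA carboxylase, were down-regulated at 4 months, by -0.61 (FDR = 0.00376) and -0.69 (FDR = 0.0104). In a fit to the 4-month libraries alone the FDR was 0.16 for Thrsp and 0.0734 for Mid1ip1, and with the replicate number as a block it was 0.0521 for Mid1ip1.

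Of 10 genes of droplet coat and assembly besides the members, Hilpda, an inhibitor of adipose triglyceride lipase, was up-regulated at 8 months (0.74, FDR = 0.0405; 0.127 with the replicate number as a block) and Plin4 was down-regulated at 6 months (-1.14, FDR = 0.0454; 0.115 after quantile normalization and 0.121 with all 32 libraries). The symbol Cidec was not a row of the table. Of 10 lipolysis genes, Lipa, the lysosomal acid lipase, was up-regulated at 6 and 8 months (0.68 and 0.74, FDR = 6.67e-08 and 2.54e-07) and passed the FDR at 4 months with 0.57. Mgll, monoacylglycerol lipase, was down-regulated at 6 months (-0.59, FDR = 5.89e-05), close to the fold threshold. The Mgll call was lost with all 32 libraries (FDR = 0.0571), after quantile normalization (-0.57) and in 4 of 28 fits without 1 library. Lipe passed the FDR at 4, 6 and 8 months with -0.43, -0.33 and -0.35, under 1.5 fold, and Abhd5, the coactivator of adipose triglyceride lipase, did not pass (0.23, 0.42, 0.34 and 0.04).

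Fatty acid oxidation, the opposite route, had 25 genes in the table, of which 4 were up-regulated at 1 or more ages and 1 was down-regulated. Ppargc1b, a coactivator of oxidative genes, was up-regulated at all 4 ages (0.64, 1.09, 1.13 and 1.69, with FDR = 0.0269 at 2 months and 9.9e-07 at 8 months). With all 32 libraries its FDR was 0.589 at 2 months and 0.142 at 4 months (0.64), and at 2 months it was 0.0757 in a fit to that age alone, so the calls at 6 and 8 months were the ones kept in these fits. Echs1, enoyl-CoA hydratase, was 0.73, 0.98 and 0.79 from 4 months on. Cpt1a, an enzyme of fatty acid entry into mitochondria, was up-regulated at 8 months (0.64, FDR = 0.000172). With all 32 libraries its change was 0.55 and under 1.5 fold. Cpt1c was down-regulated at 8 months (-1.77, FDR = 0.015), with an FDR of 0.183 in a fit to that age alone. Pparg did not pass at any age (0.23, -0.53, 0.32 and 0.35).

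**Figure D4:**
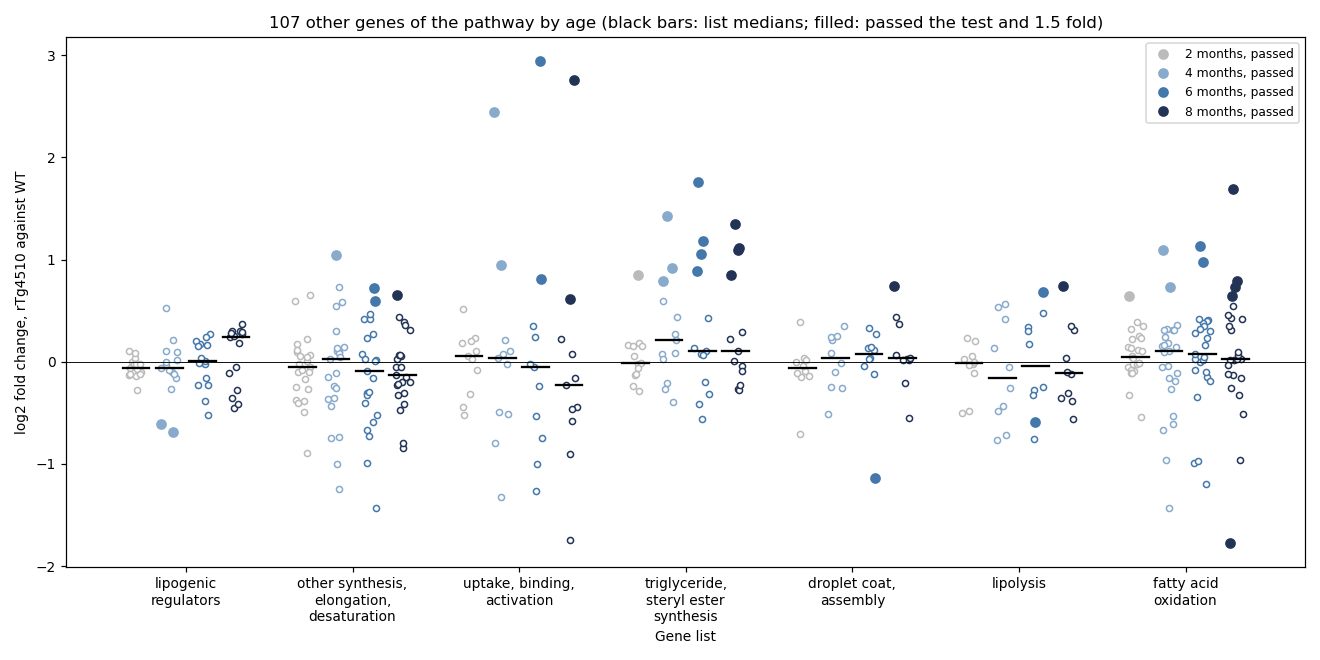
Log2 fold change of rTg4510 against WT for the 107 other pathway genes in 7 lists at 2, 4, 6 and 8 months (light to dark), with filled symbols for genes that passed the test and 1.5 fold and black bars at list medians. List medians lie between -0.23 and 0.24, and the filled symbols of the triglyceride and steryl ester list are all above 0.

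Cell markers were read beside these results. The log2 summed signal of 8 microglia markers, led by Cx3cr1, was lower in the rTg4510 than in the WT group mean at every age, at 14.91 against 15.12, 14.75 against 14.97, 14.79 against 15.06 and 14.54 against 14.82 from 2 to 8 months. At 2 months 6.03% of all genes passed the FDR in either direction. Of the 8 microglia markers, 3 passed in the lower direction at that age, none above 1.5 fold. Of these markers, Tmem119 was down-regulated at 4, 6 and 8 months (-0.74, -0.78 and -0.72), Itgam, which encodes the CD11b used for capture, was down-regulated at 6 months (-0.62), and Trem2 was up-regulated at 4 and 6 months (0.61 and 0.65). Neutrophil markers (5 of 5 measured, led by Ngp) held 0 called genes at 2 and 4 months, where 1.98% and 13.8% of all genes were called. At 6 and 8 months, where 8.54% and 5.37% of all genes were down-regulated, these markers held 4 down-regulated genes each time. Their summed signal in rTg4510 against WT was 9.36 against 9.32, 8.43 against 9.55, 7.58 against 9.59 and 8.21 against 9.93 from 2 to 8 months. None of 8 oligodendrocyte genes was called at any age, and their sum was 8.10 against 8.20, 7.83 against 8.12, 7.76 against 8.39 and 8.83 against 9.52. The marker counts that follow are of genes called at 1 or more ages, where 14.1% of all genes were higher and 11.1% lower. Astrocyte markers (6 of 6, led by Slc1a3) held 1 up- and 3 down-regulated genes, endothelial markers (5 of 5, led by Cldn5) 1 and 2, and border macrophage markers (5 of 5, led by Mrc1) 0 and 1. Monocyte markers (3 of 3, led by Ccr2) held 0 up- and 3 down-regulated genes, lymphocyte markers (4 of 5 in the table, led by Cd79a) 0 and 1, and neuron markers (3 of 6, led by Snap25) 0 and 1. The part of these cells in the member values was not tested.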

How the data were processed

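Microglia RNA of 32 pooled-animal libraries was sequenced, and 28 were analysed. The 4 that the authors excluded after failed QC entered an alternative fit and are read as pairs in the closing section. The deposited values are log2 gene signals: the authors added up exon reads of repeat runs, dropped exons under 10 counts in over 80% of samples, fitted a robust linear model over exons and median normalized. Sequencing depth is not recoverable from these values. The build is GRCm38 per the submitters' processing notes, and the aligner is not given in the sources used here. The library kit is not described as keeping strand, so antisense reads cannot be told apart.

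Entrez IDs were matched to RefSeq (17828 of 18588, 95.9%). Group means of 8 genotype and age groups were fitted per gene with limma 3.58.1 (R 4.3.3), without variance moderation. The paper names a factorial linear model of genotype and month with contrasts and does not state whether variances were moderated. This fit called 368, 2564, 3689 and 2950 genes from 2 to 8 months, the numbers that the paper gives. Two-sided p-values had 20 residual degrees of freedom. The Benjamini-Hochberg FDR was taken per contrast over all genes, and the thresholds were FDR under 0.05 and above 1.5 fold. The code was tested on simulated data. Copies were searched among GENCODE M21 transcripts with BLAST 2.17.0 (at least 95% identity over at least 200 bases). Alternatives were all 32 libraries, only the groups compared, moderated variance, quantile normalization, a filter at the 25th percentile, a replicate block and leaving out each library; leaving out both replicate 1 libraries at 8 months was added after seeing the data.

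Replicate numbers are shared by the genotypes in the labels. After subtraction of group means, libraries with 1 number in both genotypes correlated at 0.131 to 0.153 at 6 months and 0.150 to 0.291 at 8 months. Libraries with different numbers correlated at -0.127 to 0.0913 and -0.259 to -0.0281 at these ages. At 2 months the same-number values were 0.0649 to 0.167 and the others -0.194 to 0.0816. At 4 months they were -0.0999 to 0.124 and -0.0709 to 0.154. The ranges were thus apart at 6 and 8 months and overlapped at 2 and 4 months. The main fit used no pairing at any age, so every estimate and FDR outside the replicate block comes from unpaired groups.

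Named genes are the 10 members, the 3 called genes of each list with the largest change, 17 further pathway genes, and the 2 genes most correlated with each member, of which 1 is not reported here. Members and lists were chosen with earlier results of these data known.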

Additional observations from a re-analysis of the deposited data

Results flagged for a closer look

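For Acaca the genotype difference was larger at 4 than at 2 months by 1.51 in log2 fold change, for Fabp5 by 2.52 and for Fasn by 0.48, each by a test of the difference itself. Acaca and Fabp5 passed both thresholds and Fasn the FDR alone.

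The 4 libraries that the authors excluded gave values outside the main comparisons. At 4 months the excluded rTg4510 replicate 3 exceeded the excluded WT replicate 3 by 2.03 for Acaca, 1.70 for Plin2 and 5.19 for Fabp5 in log2 signal. At 8 months the excluded pair, replicate 4, differed by 1.85 for Acaca and 3.57 for Fabp5. In these pairs the rTg4510 library was also above every kept WT library of its age. For Plin2 at 8 months the excluded rTg4510 library, at 5.73, exceeded the excluded WT library, at 4.75, by 0.98, and both lay below all 3 kept WT libraries.

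Among 40 groups of 4 libraries tested for a library far from the others, 2 stood out: the highest Acaca value in rTg4510 at 2 months, 4.41, with a gap of 0.147 of a range of 0.173, and the lowest Acsl1 value in rTg4510 at 6 months, 5.44, with a gap of 0.207 of a range of 0.250. Chance flags about 1 in 20 groups.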

How the results depend on the processing

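Among alternatives, the number of members called in each of the 13 comparisons stayed within 1.5 times; the replicate block (age by replicate number) was run for the 7 of genotype only, and not for the 6 comparisons of ages within a genotype, which lie between blocks. With it 3 members passed at 4, 6 and 8 months, 0 at 2 months and 2 in the genotype difference at 4 against 2 months; the block changed no member's call, and of the other genes it ended those of Mid1ip1 at 4 months (-0.69, FDR = 0.0521) and Hilpda at 8 months. The block paired libraries of the same number at every age, and the main fit paired none. Acaca and Fabp5 passed in all 28 fits without 1 library and all other settings at 4, 6 and 8 months. Small estimates changed sign: Scd2 was -0.03 at 2 and -0.04 at 8 months with quantile normalization, and -0.06 at 4 months, -0.03 at 8 months and -0.07 for 4 against 2 months with all 32 libraries; Pnpla2 at 4 months was 0.03 with all 32 libraries. Leaving out 1 library moved Scd2 from -0.06 to 0.10 at 2 months and from -0.08 to 0.30 at 8 months, Plin2 from -0.06 to 0.14 and Acsl1 from -0.02 to 0.09 at 2 months, Pnpla2 from -0.00 to 0.14 at 2 months, from -0.07 to 0.11 at 4 months and from -0.16 to 0.03 for 4 against 2 months, and Acly from -0.10 to 0.00 for the last. The causes were not tested. All-gene calls at 2 months were 368, and 165 with all 32 libraries and 244 with the compared groups only; at 4 and 8 months the latter gave 1561 and 1854 against 2564 and 2950. Over 98 results for members, copies and called pathway genes, 10 calls were lost with all 32 libraries, 16 with the compared groups only, 5 with quantile normalization, 3 without both replicate 1 libraries at 8 months and none with moderated variance. The 98 include member results that were not called in the main fit and had no call to lose, so the share of calls lost is larger than these counts over 98. Calls were also gained: 1 with all 32 libraries (Plin3 at 4 months, 0.87) and 3 in fits without 1 library, for Fasn at 4 months without WT replicate 2 (0.59), Plin3 at 6 months without WT replicate 1 (0.60) and the Plin2 difference at 4 against 2 months without the 4-month WT replicate 1 (0.83, FDR = 0.0366). Without 1 library the number of members called was thus 3 to 4 at 6 months and 2 to 3 for that difference, and 3 at 4 and 8 months, where Fasn took the place of Plin2 in 1 fit at 4 months. Of 28 fits without 1 library, 5 lost the call of Hilpda at 8 months and 5 that of Ppargc1b at 2 months, each without a library of that age. Plin4 at 6 months, with an FDR of 0.0454, lost its call in 15, of which 9 left out a library of another age; in these 9 the change stayed at -1.14 and the FDR was 0.0506 to 0.0524.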
